A study of Mus musculus with 4 samples.

Results

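The Hox cluster genes encode homeodomain transcription factors that lie side by side in 4 clusters, Hoxa, Hoxb, Hoxc and Hoxd. They were examined for binding by PRDM6, a PR domain zinc finger protein of smooth muscle cells (SMCs). Members were the 39 genes with a Hox symbol of cluster a, b, c or d followed by a number, taken by symbol from the authors' annotation of PRDM6 ChIP peaks. Of these, 10 genes had at least 1 assigned peak and 29 had none. Together they held 20 of the 13977 peaks of the series.

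The samples were cultured primary mouse outflow tract SMCs from late-gestation embryos, infected with a lentivirus so that they expressed FLAG-tagged PRDM6. The paper's culture methods take such cells from embryos homozygous for a floxed Prdm6 allele (Prdm6 fl/fl), and its ChIP methods give no genotype of their own. There were 2 PRDM6 ChIP libraries, precipitated with an anti-FLAG antibody, and 2 Input libraries of the same kind of chromatin without precipitation. All 4 samples carried the virus, so no group without tagged PRDM6 was included, and binding is that of an overexpressed protein. The study describes the immunoprecipitations both as coming from the same sample and as independent replicates, so agreement between them may be technical. The Input libraries entered through the authors' peak calls and had no value of their own here. Neither expression nor cell type markers were measured in this assay, so the cell type stands as labelled.

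In vertebrates the order of Hox genes in a cluster follows the order of their expression along the body axis. Genes at the 3′ end of a cluster, which belong to the low-numbered paralogue groups, act in the hindbrain, in the neural crest that leaves it and in the pharyngeal arches. Genes at the 5′ end act in the trunk, limbs and tail. Retinoic acid activates the 3′ genes early, Polycomb proteins hold unused parts of a cluster silent, and Hox proteins bind DNA together with Pbx and Meis cofactors. SMCs of the outflow tract derive in part from cardiac neural crest.

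To show the sequence under peaks, the stretch within 100 bp of the summit is given for 6 of them. These are 3 strong Hox peaks, the 2 that hold an AP-1 or a Hox-Pbx match, and a strong peak between Hoxb9 and Hoxb13. Each is written on the plus strand of mm10 (GRCm38), and capitals mark matches to the motifs described further on.
Far Hoxb1 peak, chr11:96413683-96413883: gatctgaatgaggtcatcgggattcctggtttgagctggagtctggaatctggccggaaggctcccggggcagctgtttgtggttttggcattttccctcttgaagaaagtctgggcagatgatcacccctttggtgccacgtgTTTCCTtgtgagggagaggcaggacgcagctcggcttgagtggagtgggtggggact
Hoxb2 upstream peak, chr11:96349817-96350017: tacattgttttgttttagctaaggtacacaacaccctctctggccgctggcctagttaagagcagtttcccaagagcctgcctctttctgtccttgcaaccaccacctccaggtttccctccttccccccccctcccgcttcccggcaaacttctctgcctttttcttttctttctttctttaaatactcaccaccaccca
Hoxa5 intron peak, chr6:52203121-52203321: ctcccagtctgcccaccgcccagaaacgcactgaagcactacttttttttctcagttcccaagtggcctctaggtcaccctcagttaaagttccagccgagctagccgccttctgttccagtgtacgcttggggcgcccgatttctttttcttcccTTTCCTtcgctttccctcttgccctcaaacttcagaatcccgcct
Hoxb3 peak with an AP-1 match, chr11:96343363-96343563: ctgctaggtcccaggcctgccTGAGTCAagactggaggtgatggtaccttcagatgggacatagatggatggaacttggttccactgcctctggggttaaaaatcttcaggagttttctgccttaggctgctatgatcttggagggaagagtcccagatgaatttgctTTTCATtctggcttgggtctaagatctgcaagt
Hoxb3 peak with a Hox-Pbx match, chr11:96344907-96345107: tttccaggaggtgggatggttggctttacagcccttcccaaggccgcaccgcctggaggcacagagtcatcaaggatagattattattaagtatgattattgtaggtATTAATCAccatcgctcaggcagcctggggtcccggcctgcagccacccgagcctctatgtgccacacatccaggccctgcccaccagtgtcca
Gm53 peak beyond Hoxb9, chr11:96260419-96260619: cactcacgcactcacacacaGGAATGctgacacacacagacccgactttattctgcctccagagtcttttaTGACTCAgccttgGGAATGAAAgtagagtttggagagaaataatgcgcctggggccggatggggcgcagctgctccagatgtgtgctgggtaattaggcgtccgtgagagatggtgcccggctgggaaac

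Peaks were assigned to Hox genes in the Hoxa and Hoxb clusters, and to none in Hoxc or Hoxd. In Hoxa, 4 of 11 genes had a peak (6 peaks), and in Hoxb 6 of 10 genes did (14 peaks). None of the 9 Hoxc genes and none of the 9 Hoxd genes had one. Of the 21887 protein-coding genes of the RefSeq annotation, 20.1% had an assigned peak, beside 25.6% of the 39 Hox genes, shares that are close when peaks at any distance count. The median Hox gene spanned 3737 bp and the median protein-coding gene 17169 bp. Within 3 kb of a transcription start site (TSS), 9 Hox genes (23.1%) and 8.28% of protein-coding genes had a peak.

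Genes with a peak lay at the 3′ side of their clusters. In paralogue groups 1 to 7 of Hoxa and Hoxb, 10 of 14 genes had a peak, among them Hoxa2, Hoxa3, Hoxa5, Hoxb1, Hoxb2, Hoxb3, Hoxb4, Hoxb6 and Hoxb7. In groups 8 to 13 of these clusters, 0 of 7 genes had one, with a 95% Wilson interval of up to 35.4% that takes in the 20.1% of protein-coding genes. The exceptions in the lower groups were Hoxa4, Hoxa6, Hoxa7 and Hoxb5. Paralogue groups 2 and 3 had peaks in both clusters. This division was drawn after the positions were seen, and it carries no test.

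**Figure D1:**
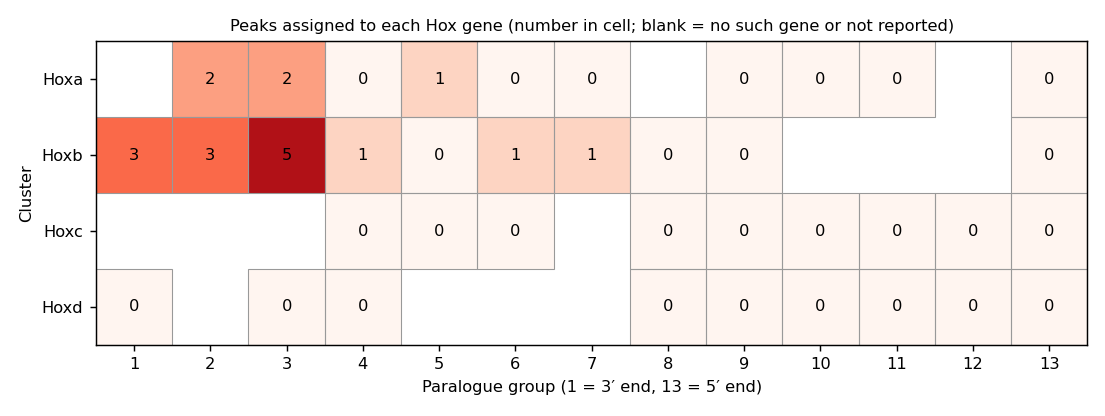
Number of PRDM6 peaks that the authors' annotation assigned to each of the Hox genes, by cluster (vertical axis) and paralogue group (horizontal axis), with darker red for more peaks and blank cells where mice have no such gene or no value is reported here. Hoxb3 had the most, with 5, and every gene of groups 8 to 13 had 0.

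Counted by position instead of by symbol, the clusters held more peaks than their Hox genes were given. From the first to the last Hox gene, the Hoxa cluster (chr6:52155367-52260880) held 15 peaks, of which 6 carried a Hox symbol and 9 the symbol of another gene. The Hoxb cluster (chr11:96194316-96368254) held 13 peaks, 11 with a Hox symbol and 2 without. No peak lay in the Hoxc cluster (chr15:102921131-103036856) or the Hoxd cluster (chr2:74668225-74765142). The 3 remaining Hox peaks, all of Hoxb1, lay outside the cluster beyond its 3′ end.

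Peaks in Hoxa and Hoxb were dense. The Hoxa cluster had 142.2 peaks per Mb and chromosome 6 had 5.7, a ratio of 25, or 12.8 with 50 kb added on both sides of the cluster. The Hoxb cluster had 74.7 peaks per Mb and chromosome 11 had 5.2, a ratio of 14.4. Summits were a median of 1773 bp apart in Hoxa and 4730.5 bp apart in Hoxb, whereas neighbouring summits over the genome were 42279 bp apart. Of 26350 windows of 100 kb over the genome, 18 (0.0683%) held at least 10 peaks, and 2 of these 18 lay on Hox clusters. The window over 3′ Hoxa held 13 peaks, as many as any window of the genome, and the window over 3′ Hoxb held 11.

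The composition of the 4 clusters was compared. GC content was 50% in Hoxa, 48.9% in Hoxb, 49.0% in Hoxc and 49.4% in Hoxd. CpG dinucleotides numbered 29.8, 20.9, 21.5 and 28.1 per kb in the same order, and the annotation placed 59, 35, 21 and 38 distinct TSSs in them. At the density of its own chromosome, a stretch as long as the Hoxc cluster would hold 0.96 peaks and one as long as Hoxd 0.55. A count of 0 in Hoxc or Hoxd alone is therefore close to what these densities give.

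TSSs are crowded in Hox clusters, so the density was also taken over sequence within 3 kb of a TSS. Such sequence made up 93.9% of Hoxa, 61.5% of Hoxb, 66.2% of Hoxc and 93.3% of Hoxd, but 15.2% of the genome. Over it, there were 151.4 summits per Mb in Hoxa and 121.5 in Hoxb, beside 9.1 over the genome. The Hoxa value was 16.7 times and the Hoxb value 13.4 times that of the genome. For Hoxc and Hoxd the rate of the genome would give 0.69 and 0.82 summits.

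**Figure D2:**
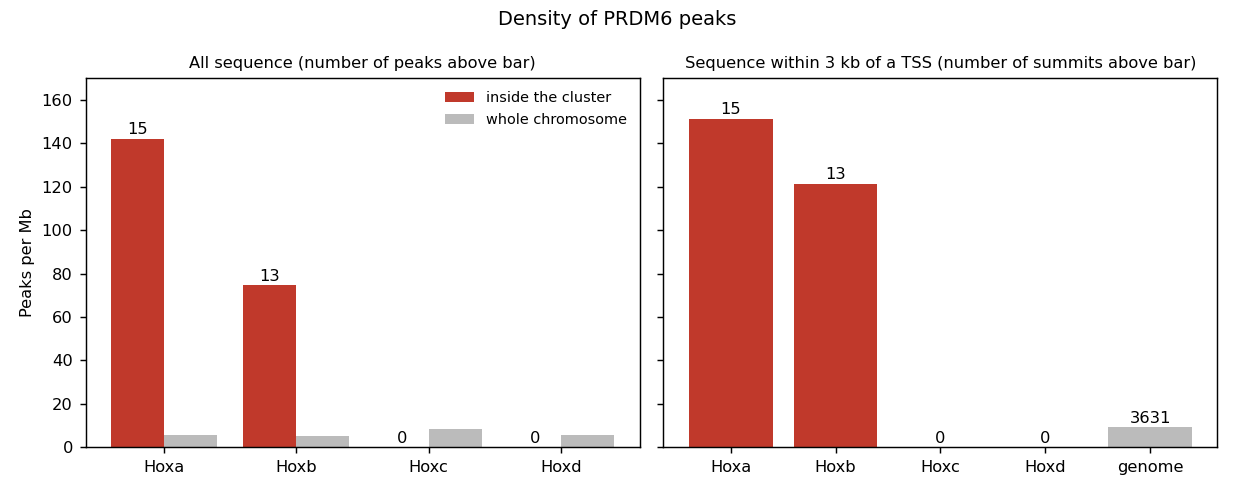
Left, peaks per Mb inside each Hox cluster (red) and on its whole chromosome (grey). Right, summits per Mb of sequence within 3 kb of a TSS in each cluster (red) and over the genome (grey). Numbers above the bars are peaks or summits, with 15 in Hoxa, 13 in Hoxb and 0 in Hoxc and Hoxd.

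All summits in Hoxa lay towards its 3′ end. The dividing point used here, the end of Hoxa5, was chosen from the positions of the peaks, so the counts on its sides follow from that choice. The stretch from its 3′ end through Hoxa5, 49.2 kb long, held all 15 of them, and the 56.3 kb from there to the end of Hoxa13 held 0. The 5′ part without peaks had a GC content of 50.9% and 33.6 CpG per kb, and the 3′ part with peaks had 49.0% and 25.5. In the 5′ part 37 TSSs were annotated, and in the 3′ part 22. At the density of chromosome 6 the 5′ part would hold 0.32 peaks. The gene bodies of Hoxa7, Hoxa9, Hoxa10, Hoxa11 and Hoxa13 were 12402 bp to 55632 bp away from the nearest summit.

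In Hoxb the parts, again divided with the positions known, both held peaks. The 82.7 kb from Hoxb1 to Hoxb7 held 11 peaks (133.1 per Mb), and the 91.3 kb from Hoxb8 to Hoxb13 held 2 (21.9 per Mb). One of these 2 lay in the 3′ untranslated region of Hoxb8 but was assigned to Hoxb7. The other lay between Hoxb9 and Hoxb13 at Gm53, a noncoding gene. Hoxb13 was 63909 bp from the nearest summit and Hoxb9 8274 bp. In Hoxd every gene was 30424 bp or more from a summit, and in Hoxc 91930 bp or more.

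**Figure D3:**
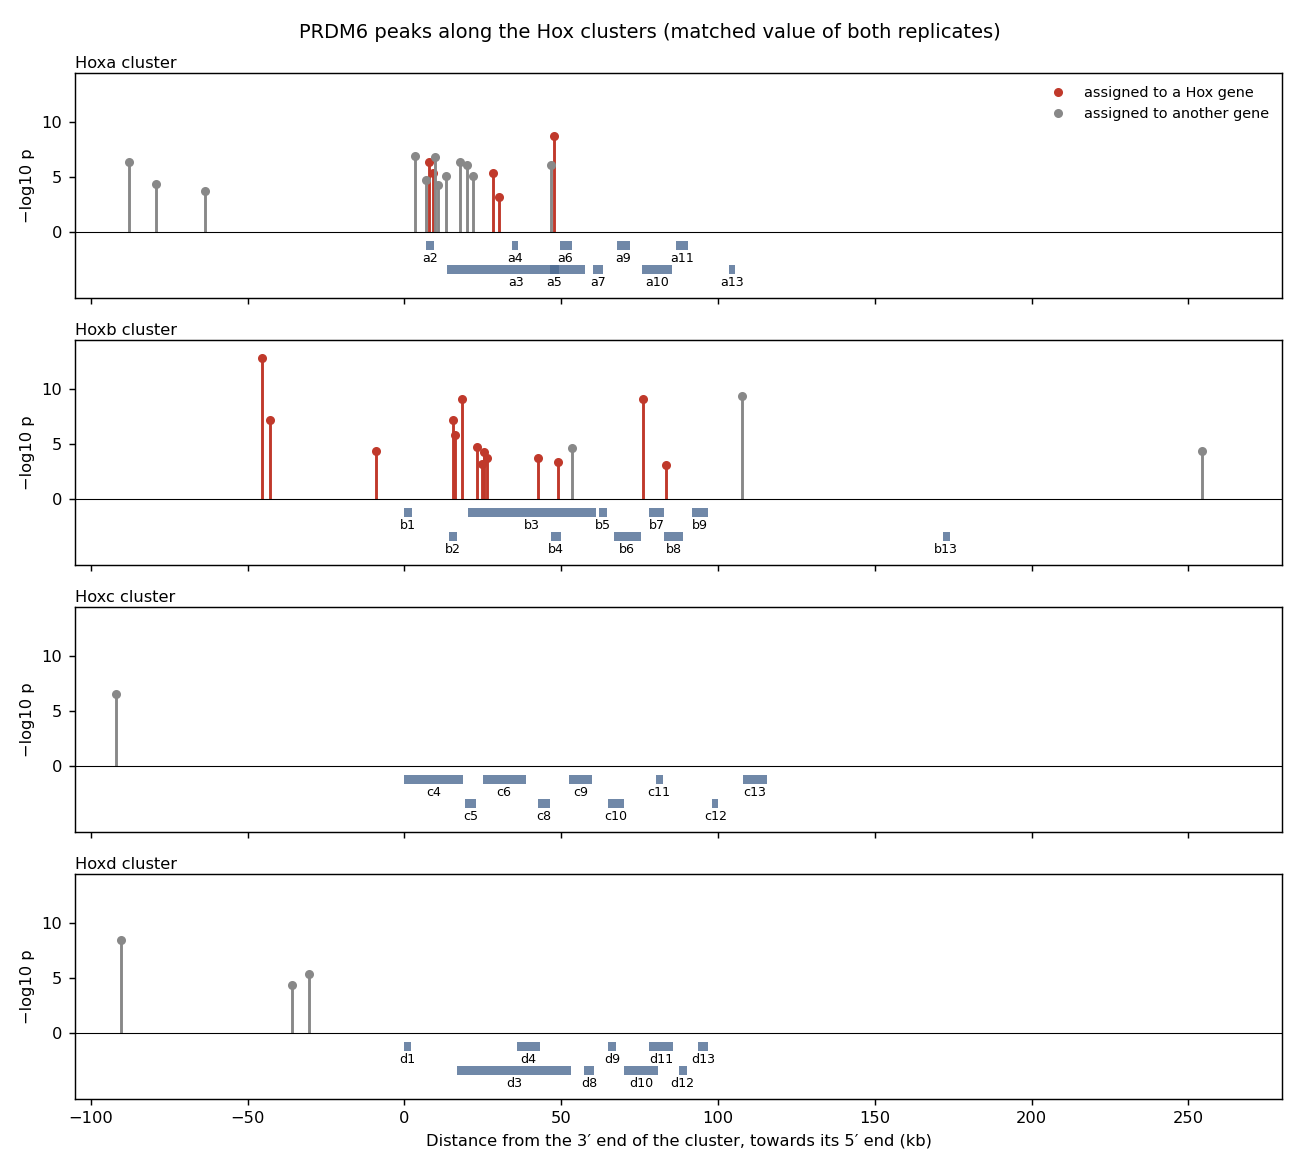
Summits of peaks along the 4 Hox clusters and the 100 kb on either side, with the matched −log10 p-value as height and the distance in kb from the 3′ end of the cluster on the horizontal axis. Blue bars are the Hox gene bodies reported here in 2 staggered rows, red stems are peaks assigned to a Hox gene and grey stems are other peaks. Stems crowd over the 3′ part of Hoxa and over Hoxb1 to Hoxb7, and no stem stands over Hoxc or Hoxd genes.

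Peaks were described by their −log10 p-value, which MACS2 gave for each replicate against its input. The authors' matched value is the smaller of both. The list does not say which sample each replicate was, so the replicates are called first-listed and second-listed. Where a p-value lay on the series that a single genome-wide background mean would give, it was read back as the height of the peak in fragments. Heights assume that the p-value is the chance of more fragments than the height, and if the caller counted the height itself, each would be 1 fragment higher. That mean was 2.61 fragments in the first-listed and 2.39 in the second-listed replicate. The irreproducible discovery rate (IDR) is used here in its global form. This estimates the share of irreproducible peaks among all peaks ranked at least as high, and is not the chance for a single peak.

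Hoxb1, which gives identity to a segment of the hindbrain, had the strongest Hox peak. It lay at chr11:96413341-96414272, 47083 bp downstream of the assigned TSS and in intergenic sequence beyond the 3′ end of the cluster. Its −log10 p was 12.84 in the first-listed and 15.72 in the second-listed replicate, where it was 23 fragments high. Both values were the highest of any Hox peak in their replicate. By matched value it ranked 304 of 13977. With a global IDR of 0.032 it was the only Hox peak at or under 0.05, a level that 3.33% of all peaks reached.

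The other peaks of Hoxb1 were also intergenic. The peak at chr11:96411072-96411269, 44814 bp downstream, had −log10 p-values of 7.17 and 9.98 in the first-listed and second-listed replicate. The nearest, at chr11:96377076-96377731 and 10818 bp downstream, had values of 9.37 and 4.39 and heights of 17 and 10 fragments. No peak was assigned to Hoxb1 within 10 kb of its TSS, and none overlapped the gene body.

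Hoxb2, which acts in hindbrain segments, had 3 peaks. The strongest, at chr11:96349735-96350542, ended 1089 bp upstream of the TSS, within the antisense gene Hoxb3os. Its −log10 p-values of 9.37 and 9.10 (17 and 16 fragments) were nearly alike, and the summits of both replicates lay 3 bp apart. A second peak, at chr11:96351936-96352400 with values of 6.35 and 5.84, had its summit in the first coding exon. A further one, at chr11:96352504-96353400 with values of 7.17 and 7.42, overlapped coding sequence too. Hoxb2 therefore had a peak before its start and 2 in its body, all with −log10 p-values that differed little between replicates. The replicate summits of the 2 body peaks lay 210 and 421 bp apart, however. The median gap was 151.5 bp over Hox peaks and 121 bp over all peaks. The peak in the first coding exon had a global IDR of 0.759.

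Hoxb3, a gene of the hindbrain and pharyngeal arches with several start sites, had the most peaks, 5, and all were weak. Its body is long, at 40830 bp beside a median of 3737 bp over the Hox genes. Their matched values ran from 3.21 to 4.71, below the median of 5.53 of all peaks. Replicates differed widely for some of them. The peak at chr11:96341725-96342354 had a −log10 p of 10.23 in the first-listed and 3.71 in the second-listed replicate, 18 and 9 fragments. The next, at chr11:96342594-96343084, had 10.23 and 4.30. These peaks were high in the first-listed replicate only, and the next pair was higher in the second-listed one. The peak at chr11:96343161-96343639, 130 bp upstream of a TSS, had 3.21 and 6.61. That at chr11:96344695-96345414 had 4.71 and 8.25. The fifth, at chr11:96325645-96326020, was low in both with 4.04 and 3.71. The peaks at chr11:96341725-96342354, chr11:96342594-96343084 and chr11:96343161-96343639 follow each other at less than 1 kb and become a single peak when such peaks are joined.

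The remaining Hoxb genes with a peak had 1 each. Hoxb6, a gene of the trunk, had a strong one at a TSS, with −log10 p-values of 12.03 and 9.10 (20 and 16 fragments) and summits 25 bp apart. Hoxb4, best known from blood stem cells, had one at chr11:96319182-96320111, 915 bp downstream of its TSS, with values of 3.41 and 6.61. Hoxb7 had the weakest Hox peak, at chr11:96284719-96285011, with values of 3.75 and 3.09. Hoxb5, which lies between Hoxb6 and Hoxb4, had none, and the nearest summit was 8737 bp from its body.

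In Hoxa, the peak of Hoxa5, a gene of lung and skeletal patterning, was the strongest. It lay at chr6:52203065-52203587 between both coding exons, 1000 bp downstream of the TSS, with −log10 p-values of 9.37 and 8.72. Hoxa2, which patterns the second pharyngeal arch, had a peak at chr6:52162581-52163555 with values of 8.75 and 6.39, and another at chr6:52164074-52164489 with 5.42 and 7.92. Both had their summits in its coding exons. Of all the 20 Hox summit windows, the latter had the highest GC content, 73.6%, with 24 CpG.

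Hoxa3 had weaker peaks. This gene, which is needed for derivatives of the third pharyngeal arch, had a peak over a TSS at chr6:52183147-52183919 with 5.42 and 5.80. Its other peak, at chr6:52185257-52185605 and 383 bp upstream of a TSS, had 3.21 and 5.84. Hoxa4 had no peak, with the nearest summit 4184 bp from its body.

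**Figure D4:**
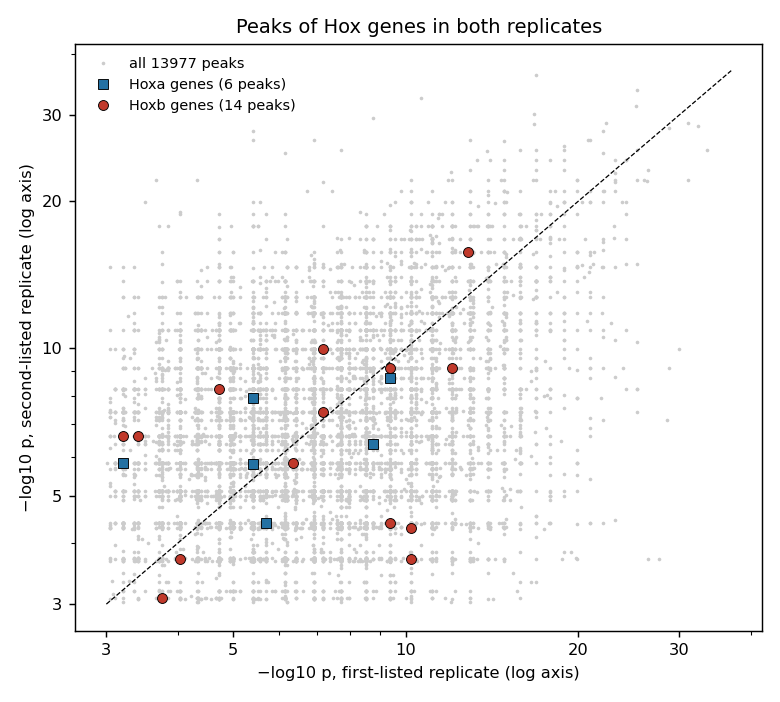
−log10 p-value of each peak in the first-listed (horizontal) and second-listed (vertical) replicate on log axes, with all 13977 peaks in grey, the 6 peaks of Hoxa genes as blue squares and the 14 of Hoxb genes as red circles. The dashed line marks equal values. The far peak of Hoxb1, at 12.84 and 15.72, stands apart from the other Hox peaks.

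Over the 20 Hox peaks, the median matched −log10 p was 5.06 (range 3.09 to 12.84), beside 5.53 over all peaks. Of the 20, 8 were above the median of all peaks, as were 49.7% of all peaks. In the first-listed replicate the Hox median was 6.76 and that of all peaks 6.92, and in the second-listed replicate they were 6.50 and 6.61. The first-listed replicate gave the higher value at 11 Hox peaks and the second-listed at 9. Spearman's rho between the replicates was 0.28 over the 20 peaks and 0.26 over all peaks. The 10 Hox peaks with the lowest score of the list, 48, made up 50%, beside 41.4% of all peaks. At these Hox peaks that score went with a global IDR of 0.759. The median global IDR was 0.674 over the Hox peaks and 0.55 over all peaks. Over promoter peaks it was 0.759 for Hox genes and 0.575 for all genes. Most of the Hox peaks are therefore calls of low reproducibility. Of the 28 peaks inside the clusters, 0 had a global IDR at or under 0.05 (95% Wilson interval up to 12.1%), beside 3.33% of all peaks.

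The share of p-values on the genome-wide background was 55.0% of Hox peaks in the first-listed replicate (58.3% of all peaks) and 70.0% in the second-listed (63.5%). The median width was 576.5 bp for Hox peaks and 600 bp for all peaks. The windows around Hox summits were richer in GC, with a median of 50.5% and 6 CpG beside 43.8% and 2 over all peaks. Over all promoter peaks, the medians were 48.8% and 4 CpG. The part of base composition in the density was not tested.

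By the authors' annotation 17 of the 20 Hox peaks were at promoters, within 3 kb of a TSS, a share of 85.0% (95% Wilson interval 64.0% to 94.8%, counting error only), beside 21.3% of all peaks. Of these, 3 overlapped a TSS, 6 lay upstream and 8 downstream. The 3 distal intergenic peaks were those of Hoxb1. As given above, 93.9% of the Hoxa cluster and 61.5% of Hoxb lie within 3 kb of a TSS, and the part of this in the share was not tested.

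Noncoding RNA genes inside the clusters took most of the other peaks. From a list of 15 such genes, 4 had a peak (26.7%), beside 5.66% of the 13955 long noncoding and microRNA genes of the annotation. Hoxaas2, an antisense RNA gene between Hoxa2 and Hoxa3, had 3 peaks, the strongest with −log10 p-values of 8.52 and 6.86. Hotairm1, an RNA known from myeloid cells, had a peak over its TSS with 6.92 and 8.25, 14 and 15 fragments. It had a second, the widest in the clusters at 2309 bp, with 4.71 and 8.25. Hoxaas3 had 2 peaks, and that at chr6:52201939-52202213 had its summit in an untranslated region of Hoxa5. By overlap with the gene body, whichever gene they were assigned to, Hoxa3 had 8 peaks and Hoxa5 had 2. Mir10a, a microRNA gene between Hoxb5 and Hoxb4, had 1 at 1744 bp upstream with 4.66 and 9.98. Hotair of the Hoxc cluster and Hottip at the 5′ end of Hoxa had none.

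By matched value, the strongest peak inside any cluster was that of Gm53, at chr11:96260288-96260971, with −log10 p-values of 9.37 and 10.89, 17 and 18 fragments. Beyond the 3′ end of Hoxa, 3 peaks were assigned to Halr1, a noncoding RNA gene of that flank, and their matched values were 3.71 to 6.42. Beyond the 3′ end of Hoxd, 3 peaks were assigned to Mtx2, a mitochondrial import gene, the strongest with 8.52 and 9.98. Within 100 kb of the Hoxc cluster, the one peak lay in D930007P13Rik with 11.92 and 6.61. On all 4 flanks the 3′ side held the peaks, except for 1 peak of Calcoco2 beyond Hoxb13.

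Motifs were searched on both strands within 100 bp of each summit. The AP-1 site, TGACTCA or TGAGTCA, was found at 1 of the 20 Hox summits, in Hoxb3, beside 14.3% of all summits and 8.33% of all promoter summits. Searched over whole peaks it was again found in 1 of 20, beside 34.3% of all peaks. The TEAD core GGAATG was found at 1, in Hoxa3, beside 19.03% of all and 15.02% of promoter summits. TTTCAT or TTTCCT was found at 5 Hox summits, beside 43.1% of all and 33.8% of promoter summits, and the far Hoxb1 peak was one of them. The CArG box of serum response factor was found at 0, beside 1.41%. A Hox-Pbx site, TGATTNAT, was found at 1, in Hoxb3, beside 4.80% of all and 2.69% of promoter summits. The Gm53 peak held AP-1, TEAD and TTTCAT matches together, and its TTTCAT match overlapped one of its TEAD matches by 3 bases. No test was made on counts this small, and a match is a description of the sequence only.

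Cofactors of Hox proteins were examined as a list. Of 9 genes, 5 had a peak (55.6%, 95% Wilson interval 26.7% to 81.1%, beside 20.1% of protein-coding genes), with 38 peaks in all. Meis1, a homeodomain partner of Hox and Pbx proteins, had 19 peaks, 6 of them at promoters, and the strongest had a matched value of 8.52. Meis2, expressed in cardiac neural crest, had 8 peaks with a highest value of 9.37. Pknox2 had 3 and Pbx3 had 2. Pbx2, Pbx4, Meis3 and Pknox1 had none, and no cofactor peak had a global IDR at or under 0.05.

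Genes upstream of Hox expression had a peak in 8 of 22 cases (36.4%, 95% Wilson interval 19.7% to 57.0%), beside 20.1% of protein-coding genes. Within 3 kb of a TSS, 3 of the 22 had a peak, beside 8.28% of protein-coding genes. Rarb, a retinoic acid receptor gene, had 4 peaks, none nearer than 22080 bp. Cyp26b1, which encodes an enzyme that degrades retinoic acid, had 2, at 62999 bp or more. Rnf2, a Polycomb ubiquitin ligase gene, had 2 at promoters, and Kdm6a and Kdm6b, which encode demethylases of the Polycomb mark, had 1 each. Cdx1, Cdx2, Cdx4, Ctcf, Eed, Suz12 and Bmi1 were among the 14 with none.

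Among 20 other homeobox genes of the outflow tract and vessel wall, 6 had a peak (30%, interval 14.5% to 51.9%), beside the same 20.1%. Within 3 kb of a TSS, 2 of the 20 had a peak, beside 8.28% of protein-coding genes. Prrx1, a mesenchymal factor, had 6 peaks with a highest matched value of 10.94, and Isl1, of the cardiac progenitors, also had 6, all 217054 bp or more from its TSS. Msx2 had 2 and Gsc had 1. Of 16 genes that flank the clusters, 8 had a peak (50%, interval 28.0% to 72.0%), again beside 20.1%. Within 3 kb of a TSS, 3 of the 16 had a peak, beside 8.28%. Hnrnpa3 had 4, Mtx2 had 3, Snx11 and Skap1 had 2 each, and Cbx5, which encodes the heterochromatin protein HP1 alpha, had 3. The strongest of Cbx5 had a matched value of 15.01 and was the one peak of these lists with a global IDR at or under 0.05, a level that some peak reached in 1.64% of protein-coding genes.

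**Figure D5:**
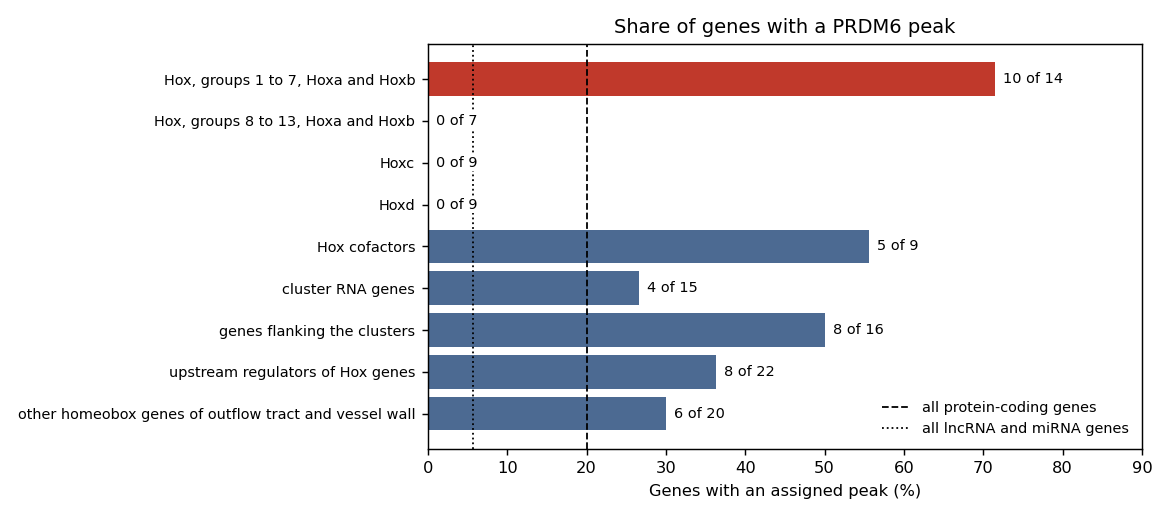
Percentage of genes with at least 1 assigned peak in 4 sets of Hox genes (red) and 5 lists of related genes (blue), with the counts beside the bars. The dashed line marks all protein-coding genes (20.1%) and the dotted line all long noncoding and microRNA genes (5.66%). The bar of the Hoxa and Hoxb genes of groups 1 to 7, with 10 of 14, is the longest, but that set was drawn after the positions of the peaks were seen.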

How the data were processed

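Paired reads were cleaned by the authors and mapped to mm10 with BWA (mapping quality of at least 13). They called peaks per replicate against its input with MACS2 (p under 0.001) and matched replicates by IDR. Versions of these tools are not given in the sources used here. The deposited list holds −log10 p-values per replicate, −log10 IDR values and a score. A score of 540 corresponds to 0.05 on the global IDR, and 830 to 0.01. The annotation column headed as a q-value equals the −log10 p of the second-listed replicate and was used as such. No fold, coverage or read count was used, and depth is known only from recovered heights.

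Here peaks were joined to the annotation by position, and RefSeq genes (GRCm38), GENCODE M21 models and the GRCm38 genome were used, of the same build as the files. Of the annotation's rows, 13858 named a transcript of that release, and all 13858 had the same start in both. Background means were those whose Poisson tails held the most p-values, and a value within 0.0002 of a tail was on the series (8144 and 8880 of 13977 peaks). The search and the motif search were tested on simulated data. One matched list gives no replicated comparison, so counts and medians are given without tests, and peaks are not replicates. Shares over all genes or all peaks are given for comparison. Every Hox gene with a peak was named, and of each other list up to 5 genes with the most peaks, with some others added after their values were seen. Some items are not reported here by name or sequence, though totals include them. Members and lists were chosen with earlier results of these data known. The tools were pysam 0.24.0, pandas 2.3.3 and NumPy 2.4.6 under Python 3.11.15, with plots by matplotlib 3.10.9.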

Additional observations from a re-analysis of the deposited data

How the results depend on the processing

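The 10 Hox genes with a peak were 9 within 10 kb or 3 kb of the TSS, 10 by the nearest GENCODE TSS, and 10 by overlap with the gene body or the 3 kb before its start, where Hoxb8 replaced Hoxb1. The 20 Hox peaks were 17 within 10 kb and 16 when peaks less than 1 kb apart were joined. A global IDR of at most 0.05 left 1 gene and 1 peak (matched value 12.84, promoter share 0.0%), and 0.01 left 0 genes and 0 peaks, which by construction leaves few peaks of any gene. The median strength was 6.50 to 6.76 in either replicate alone, above the 5.06 of the matched value, which takes the smaller of both. Density over all 4 clusters was 56.9 peaks per Mb, and 37.0 with 50 kb added on both sides. With the AP-1 search narrowed to 50 bp, 0 Hox summits held it.

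The alternatives for the lists were chosen after seeing the data. An IDR of at most 0.05 left 0 cofactor, 0 cluster RNA, 0 upstream regulator and 0 other homeobox genes, and 1 flanking gene. Within 10 kb of the TSS, 4 flanking genes, 4 upstream regulators and 3 other homeobox genes were left, while cofactors and cluster RNA genes numbered 4 each. The share of all genes with a peak within 10 kb is not given here, so these counts stand without a background. No paired analysis was possible because the columns of the replicates carry no replicate number, no Input values were used and the results come from no test. The lowest heights recovered at Hox peaks were 9 fragments in either replicate, over means of 2.61 and 2.39, and the part of depth in weak peaks was not tested.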
